A study of Mus with 2 samples.

Results

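The genes described here are targets of the hypoxia-inducible factors (HIFs) that lie outside glycolysis. They were chosen by symbol and number 10 of the 27998 genes listed in the deposited tables: Bnip3, Bnip3l, Ddit4, Ndrg1, P4ha1, Kdm3a, Vegfa, Ero1l, Fam162a and Mif. Each symbol matched 1 row. The rule that lists them uses no measured value. Their RNA was followed in single cells of mouse bone marrow sorted as hematopoietic stem cells (HSCs), with Id2 present or deleted.

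Cells were sorted as LSK FLT3- CD150+ CD48- (lineage-negative, Sca-1+ and c-Kit+, with 3 further surface proteins) from the tibias and fibulas of mice aged 8 to 12 weeks, and 1000 cells per genotype were captured on the 10x Genomics Chromium. A clause in the labels of the deleted sample gives Id2+/+ bones as its origin, but the title and the genotype entry name the deletion, and the group follows these. The groups were Mx1-Cre Id2+/+ and Mx1-Cre Id2Δ/Δ, with 1 library from 5 pooled mice for each. Both carry Mx1-Cre, a recombinase driven by an interferon-responsive promoter. Per the study's methods both received pIpC, the double-stranded RNA that switches it on, so this treatment is common to the groups. Whether the interferon response was equal was not tested. Id2 encodes an inhibitor of DNA binding that holds E proteins away from DNA, and the comparison asked how the RNA of HSCs changes in its absence. A genotype is thus a single library with nothing to replicate it: no test was run, and every interval is a 95% interval for counting error only.

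HIF1 and HIF2 are transcription factors whose alpha subunits are hydroxylated by prolyl hydroxylases when oxygen is plentiful, bound by the VHL protein and destroyed. When oxygen falls, or when VHL is lost, they accumulate, pair with ARNT and raise genes for glycolysis, blood vessel growth, mitochondrial turnover, matrix hydroxylation and growth restraint. HSCs lie in a marrow of low oxygen, and HIF1 activity has been tied to their quiescence and their glycolytic metabolism. None of the genes below answers to HIF alone: several also respond to nutrient stress, glucocorticoids, Myc or differentiation.

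The Id2+/+ library held 8612217 unique molecular identifiers (UMIs, each tagging 1 captured RNA molecule) and the Id2Δ/Δ library held 17140713. Called cells numbered 349 and 632, beside 383 and 686 in the labels, and of these 262 and 416 were retained as the stem and progenitor population, with medians of 7081 and 9663 UMIs per cell. All 10 HSC markers had UMIs in the retained cells of both libraries, at summed levels of 862 and 662 CPM (the UMIs of a gene scaled to the usual fixed total, which sets libraries of unequal depth on one scale). The sort also held other cells, which serve as a contrast below: 35 and 156 erythroid-like cells, 27 and 40 neutrophil-like cells, and 9 and 13 haemoglobin-rich cells. All 10 HSC markers also had UMIs in the erythroid-like cells, at lower sums of 163 and 161 CPM. In the retained cells the markers of platelet-biased HSCs summed to 1447 and 2213 CPM. Neutrophil markers summed there to 1073 and 641 CPM, and erythroid markers to 3019 and 2564 CPM. Cells with Xist UMIs and none from Y-linked genes, called Xist-marked here, made up 32.1% of the retained Id2+/+ cells (84) and 55.5% of the Id2Δ/Δ cells (231). The opposite, Y-marked cells made up 35.5% (93) and 21.6% (90), and the rest were unmarked or carried both. The number of mice of each sex in a pool is not in the labels. In total 1 cell barcode was called in both libraries. Id2 itself had 22 UMIs in the retained Id2+/+ cells, or 10.3 CPM (6.46 to 15.6), and 0 in the Id2Δ/Δ cells, where a count of 0 allows up to 0.64 CPM. The ratio of 0 had an upper limit of 0.0831. Per the study's methods the deletion takes the start of the gene. If the UMI tags lie at the 3' end, this count reads the Id2 RNA that remains and not the deleted stretch itself.

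The panel as a whole differed little between the genotypes in the retained cells. Among the 9 genes that had 20 UMIs or more when the libraries were added, 0 were at least 1.5-fold higher in Id2Δ/Δ cells and 1, Ddit4, was at least 1.5-fold lower. Of all 10458 genes that passed the same filter, 3.3% were higher and 13.5% lower by that rule. The median log2 ratio of Id2Δ/Δ over Id2+/+ was -0.17 over the 9 genes and -0.08 over all genes, with 3 of the 9 above 0 and 6 below. Vegfa did not reach the filter. For 2 of the 10 genes the 95% interval of the ratio lay wholly to one side of 1: Ddit4, which was lower, and Mif, which was higher. The share of all genes with such an interval was not counted, so this number has no background. With no cluster left out, so that erythroid-like and the other cells set aside are counted in, the intervals of 7 genes excluded 1, Bnip3, Ddit4, Ndrg1, P4ha1, Vegfa and Ero1l being lower and Mif higher. The share of all genes was not counted for that setting either, so the 7 are not read as a result about the panel.

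**Figure D1:**
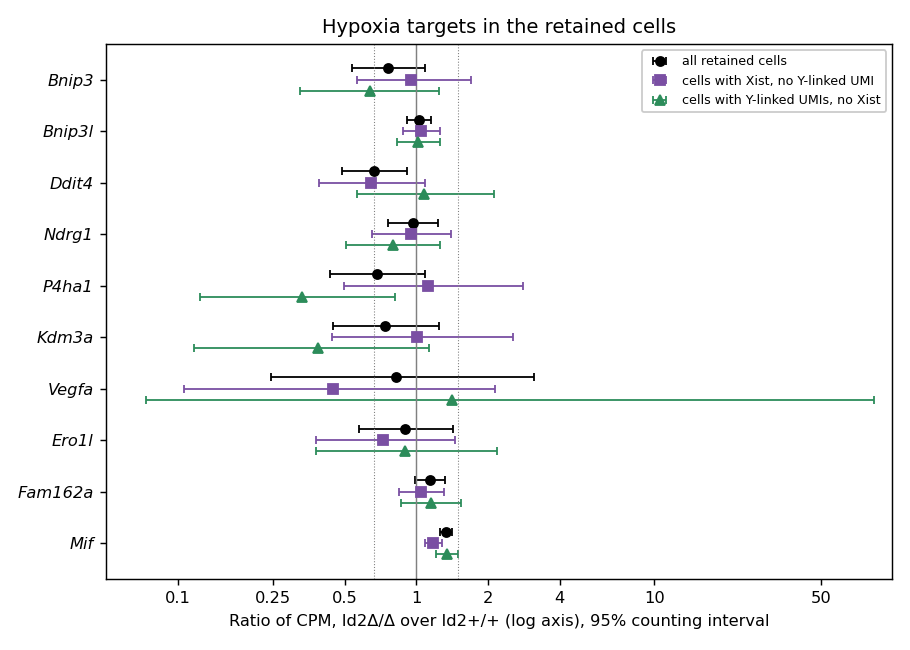
Ratio of CPM in Id2Δ/Δ over Id2+/+ cells for each gene, on a log axis, with 95% counting intervals; dotted lines mark 1.5-fold either way. Black circles are all retained cells (262 and 416), squares are Xist-marked and triangles Y-marked cells. Mif lies above 1 in all 3 sets, and the interval of Ddit4 lies below 1 only in all retained cells.

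Bnip3 and Bnip3l encode related proteins of the outer mitochondrial membrane that tether mitochondria to the autophagy machinery and so mark them for removal. Bnip3 (ENSMUSG00000078566, chr7:138890836-138909506, RefSeq annotation of GRCm38.p6) had 55 UMIs, 25.8 CPM (19.4 to 33.6), in retained Id2+/+ cells and 92 UMIs, 19.6 CPM (15.8 to 24.1), in Id2Δ/Δ cells. The ratio was 0.762 (0.540 to 1.08), and the 2 intervals of the level overlapped. With no cluster left out it was 0.502 (0.370 to 0.683). Bnip3l (ENSMUSG00000022051, chr14:66985238-67008877), also called Nix and required for the loss of mitochondria from maturing red cells, stood at 206 CPM (187 to 226; 439 UMIs) in Id2+/+ cells and at 211 CPM (198 to 224; 988 UMIs) in Id2Δ/Δ cells. Its ratio was 1.02 (0.915 to 1.15), so a difference of 1.5-fold lies outside what counting error allows in the retained cells as a whole. Between the clusters named HSC-like it was 1.47 (1.15 to 1.87). Those clusters set 167 Id2+/+ cells of a cluster that held only that library, with 7 from another cluster, against 44 Id2Δ/Δ cells of that other cluster, so this and the HSC-like ratios below are not changes within 1 cluster. RefSeq lists a pseudogene of Bnip3l that has no row in these tables, and reads that the gene and the pseudogene share could not be told apart.

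The pair differed in erythroid-like cells. In erythroid-like cells Bnip3 was at 6.07 CPM (8 UMIs) in the Id2+/+ library and at 1.58 CPM (10 UMIs) in the Id2Δ/Δ library, 4.25-fold and 12.4-fold below the retained cells of the same library. Bnip3l was at 151 and 157 CPM there, 1.36-fold and 1.35-fold below them. In neutrophil-like cells the pair was not told apart: Bnip3 stood at 0.840 (0.382 to 1.66) and 0.561 (0.235 to 1.15) of its retained level, from 10 and 8 UMIs, and Bnip3l at 1.0 (0.792 to 1.25) and 1.04 (0.872 to 1.23). In haemoglobin-rich cells, in which haemoglobin took 87.2% and 88.3% of the UMIs, Bnip3l reached 899 CPM (705 to 1131) and 787 CPM (631 to 970), 4.37-fold and 3.73-fold above the retained cells. Counted against the UMIs that were not haemoglobin, Bnip3l stood at 7000.4 and 6732 CPM, 34.0-fold (26.2 to 43.6) and 31.9-fold (25.4 to 39.7) above the retained cells. Bnip3 had 1 and 0 UMIs in the same cells. These 22 cells hold few UMIs, 10428 and 13071 besides haemoglobin, but Bnip3l was found in 88.9% and 100% of them before thinning.

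Ddit4 (ENSMUSG00000020108, chr10:59949675-59951770) encodes REDD1, an inhibitor of mTORC1 that answers to low oxygen, energy stress and glucocorticoids. It had 71 UMIs, 33.3 CPM (26 to 42.0), in retained Id2+/+ cells and 104 UMIs, 22.2 CPM (18.1 to 26.9), in Id2Δ/Δ cells, a ratio of 0.667 (0.489 to 0.915). This is 1.5-fold lower, and it passed the limit of 1.5-fold through the 0.5 added to each count. P4ha1, 1.46-fold lower, was the member just outside it. A single Id2+/+ cell held 8 of the 71 UMIs, and without the cell richest in Ddit4 in each library the ratio was 0.730 (0.528 to 1.02). In Xist-marked cells the ratio was 0.645 (0.390 to 1.09), from 24 and 52 UMIs. In Y-marked cells it was 1.08 (0.564 to 2.12), from 17 and 26 UMIs. Between the HSC-like clusters it was 0.799 (0.388 to 1.52), short of 1.5-fold.

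Shares of cells with a Ddit4 UMI did not separate the genotypes beyond counting error. Called cells had at least 4419 UMIs in the Id2+/+ library and 6181 in the Id2Δ/Δ library, as the limit was set per library. With every cell thinned to 5800 UMIs, which left out 66 Id2+/+ cells and 0 Id2Δ/Δ cells, 17.3% of Id2+/+ cells (12.3 to 23.4) and 14.4% of Id2Δ/Δ cells (11.2 to 18.2) had a Ddit4 UMI. Before thinning the shares were 19.8% and 20.4%, at medians of 7081 and 9663 UMIs. In the erythroid-like cells, thinned alike, 5.88% and 1.92% had one. By level, Ddit4 was 3.99-fold and 4.52-fold lower in erythroid-like than in retained cells, and neutrophil-like cells held 1 UMI in each library.

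Most of the genes known to be switched on by cell handling were also lower in Id2Δ/Δ cells. The 14 dissociation stress genes that passed the filter had a median log2 ratio of -1.14. Of these, 10 were at least 1.5-fold lower in Id2Δ/Δ cells and 0 higher, beside 13.5% and 3.3% of all genes. Those with at least 50 CPM in either library were Fos, Fosb, Jun, Jund, Ier2 and Dusp1, immediate early genes or, for Dusp1, a phosphatase of the same response. Fos stood at 211 CPM in Id2+/+ cells and at 35.2 CPM in Id2Δ/Δ cells, a ratio of 0.167 (0.139 to 0.200), Jun at 625 and 182 CPM (0.291, 0.267 to 0.317), and Dusp1 at 132 and 34.2 CPM (0.258, 0.211 to 0.315). The ratios of Fosb, Jund and Ier2 were 0.36, 0.575 and 0.661. Junb (0.719), Dnajb1 (0.728) and Btg2 (0.786) differed less than Ddit4, and Hsp90aa1, the most abundant of the list, was higher, at 1081 and 1275 CPM (1.18, 1.12 to 1.24). These 4 are named after their values were seen. The part of this response in the Ddit4 level was not tested.

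Ndrg1 (ENSMUSG00000005125, chr15:66929318-66969641) is a growth-restraining gene induced by hypoxia, by metals and in differentiating cells. In the retained cells it did not differ beyond counting error, with 49.2 CPM (40.3 to 59.6; 105 UMIs) in Id2+/+ cells and 47.6 CPM (41.6 to 54.3; 223 UMIs) in Id2Δ/Δ cells and a ratio of 0.967 (0.763 to 1.23). Its contrast lay between cell kinds. Erythroid-like cells, with medians of 37549 and 40038.5 UMIs per cell, held only 5 and 7 Ndrg1 UMIs in all, or 3.79 and 1.11 CPM, 13-fold and 42.9-fold below the retained cells. Neutrophil-like cells held 2 and 9 UMIs, or 4.33 and 12.4 CPM. After thinning, 23.5% (17.7 to 30.0) and 22.8% (18.9 to 27.2) of retained cells had an Ndrg1 UMI, against 5.88% and 0.641% of erythroid-like cells.

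P4ha1 (ENSMUSG00000019916, chr10:59323197-59373304) encodes the catalytic subunit of the enzyme that hydroxylates prolines in collagen, and Kdm3a (ENSMUSG00000053470, chr6:71588970-71632990) a demethylase of histone H3 lysine 9. Both were scarce. P4ha1 had 34 UMIs, 15.9 CPM (11.0 to 22.3), in Id2+/+ cells and 51 UMIs, 10.9 CPM (8.10 to 14.3), in Id2Δ/Δ cells, a ratio of 0.683 (0.434 to 1.09). Kdm3a had 27 UMIs, 12.7 CPM (8.34 to 18.4), and 44 UMIs, 9.39 CPM (6.82 to 12.6), a ratio of 0.742 (0.449 to 1.25). Neither ratio was told apart from 1 by its interval. In Y-marked cells both were lower in the Id2Δ/Δ library, P4ha1 at 0.332 (0.124 to 0.813) from 17 and 8 UMIs and Kdm3a at 0.385 (0.117 to 1.14) from 11 and 6 UMIs. In Xist-marked cells the ratios were 1.12 (0.50 to 2.82) and 1.0 (0.444 to 2.56). For P4ha1 the ratio of the 2 ratios was 3.36 (0.937 to 12.4), an interval that holds 1.

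P4ha1 was not told apart from its retained level in either of the other kinds. It stood at 15.9 and 10.8 CPM in erythroid-like cells and at 13 and 13.8 CPM in neutrophil-like cells, all within the intervals of the retained cells of the same library. Kdm3a had 6.82 and 5.86 CPM in erythroid-like cells, and 6.50 and 4.13 CPM, from 3 UMIs each, in neutrophil-like cells. Of these 4 comparisons with the retained cells, the interval excluded 1 for 1, the erythroid-like cells of the Id2Δ/Δ library (0.624, 0.392 to 0.989), and the intervals of Kdm3a and P4ha1 overlapped in all 4.

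Vegfa (ENSMUSG00000023951, chr17:46016993-46032377), the secreted ligand that drives blood vessel growth and the textbook HIF target, was close to the limit of detection. Retained cells held 5 UMIs in the Id2+/+ library, 2.34 CPM (0.761 to 5.47), and 9 in the Id2Δ/Δ library, 1.92 CPM (0.878 to 3.65). The ratio was 0.820 with an interval from 0.247 to 3.11, so a change of 3-fold either way could not be seen at this depth. It was 0.446 (0.106 to 2.15) in Xist-marked and 1.41 (0.0735 to 83.3) in Y-marked cells, from 4 and 6 and from 1 and 2 UMIs. With no cluster left out, from 13 and 16 UMIs, it was 0.415 (0.187 to 0.939). The highest of its levels were in neutrophil-like cells, at 13 CPM (4.77 to 28.3) and 6.88 CPM (2.24 to 16.1), from 6 and 5 UMIs.

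Ero1l (ENSMUSG00000021831, chr14:45283087-45318572, Ero1a in RefSeq) encodes the oxidase that passes electrons from protein disulfide isomerase to oxygen in the endoplasmic reticulum. It was low in the retained cells, at 14.5 CPM (9.87 to 20.6; 31 UMIs) in Id2+/+ and 13 CPM (9.96 to 16.7; 61 UMIs) in Id2Δ/Δ, a ratio of 0.896 (0.572 to 1.43). It was much higher in neutrophil-like cells, at 136 CPM (105 to 175; 63 UMIs) and 63.3 CPM (46.4 to 84.5; 46 UMIs), 9.39-fold (6.01 to 14.9) and 4.86-fold (3.24 to 7.25) above the retained cells. Erythroid-like cells, at 31.8 and 26.1 CPM, were 2.19-fold and 2.01-fold above them. Empty droplets held 39.6 and 28.6 CPM of Ero1l, more than the retained and the erythroid-like cells and less than the neutrophil-like cells of the same library, and with free RNA subtracted the ratio in retained cells was 1.05 (0.634 to 1.82). The part of free RNA in the erythroid-like level was not tested. After thinning, 55.6% and 35.0% of neutrophil-like cells had an Ero1l UMI, against 7.65% and 8.89% of retained cells. The shares come from 1 random draw. Over 20 other draws they ran from 40.7% to 66.7% and 20% to 32.5% in neutrophil-like cells, and from 6.63% to 11.7% and 5.29% to 7.93% in retained cells, so both Id2Δ/Δ values lay above the range of the other draws.

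Of the 4 members with at least 20 UMIs in neutrophil-like cells (Bnip3l, Ero1l, Fam162a and Mif), Ero1l differed most between the libraries there. Its ratio in these cells was 0.464 (0.310 to 0.690), from 27 and 40 cells. The ratio of its retained to its neutrophil-like ratio was 1.93 (1.04 to 3.58). The neutrophil marker list, all 10 genes of which had UMIs, summed to 71074 CPM in the Id2+/+ and 91240.1 CPM in the Id2Δ/Δ neutrophil-like cells. In the same cells the HSC markers summed to 108 and 50.9 CPM, and those of platelet-biased HSCs to 206 and 542 CPM. Whether the makeup of these cells bears on Ero1l was not tested.

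**Figure D2:**
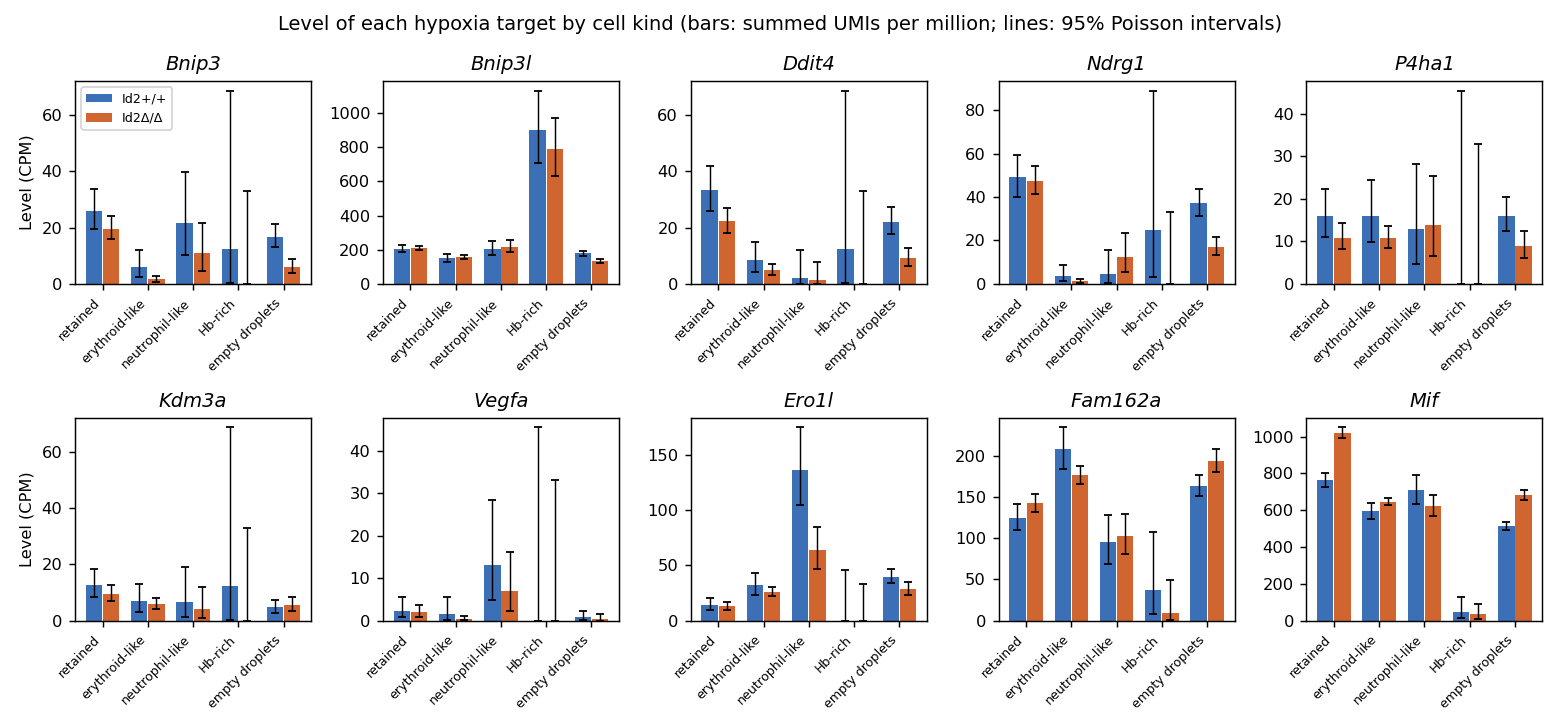
Level of each gene in CPM by cell kind and in empty droplets, on linear axes from 0; bars are CPM of the summed UMIs (blue Id2+/+, orange Id2Δ/Δ) and lines are 95% Poisson intervals. Ero1l stands highest in neutrophil-like cells (136 and 63.3 CPM), Bnip3l in haemoglobin-rich (Hb-rich) cells (899 and 787 CPM), and Ndrg1 lies at 3.79 and 1.11 CPM in erythroid-like cells.

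Fam162a (ENSMUSG00000003955, chr16:36043844-36071561), a mitochondrial protein linked to cell death under hypoxia, had 267 UMIs, 125 CPM (111 to 141), in retained Id2+/+ cells and 669 UMIs, 143 CPM (132 to 154), in Id2Δ/Δ cells. The ratio of 1.14 had an interval of 0.988 to 1.32. The lower limit sat close to 1: it passed 1 with TMM scaling (1.23, 1.06 to 1.42), described below, and just passed it with the labels' number of cells and without the cell richest in Fam162a in each library. In erythroid-like cells, where its level was 1.67-fold and 1.24-fold that of the retained cells, the order of the libraries was the reverse: 209 CPM (185 to 235) in Id2+/+ and 177 CPM (166 to 187) in Id2Δ/Δ, a ratio of 0.847 (0.742 to 0.970). Shares of retained cells with a Fam162a UMI after thinning were 53.1% and 53.4%.

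Mif (ENSMUSG00000033307, chr10:75859353-75860277), a small cytokine and tautomerase that signals through CD74, was the most abundant of the 10 and the clearest difference between the libraries. It had 1632 UMIs, 765 CPM (728 to 803), in retained Id2+/+ cells and 4785 UMIs, 1021 CPM (992 to 1051), in Id2Δ/Δ cells, and the ratio was 1.33 (1.26 to 1.41). Mif stayed above 1 in Xist-marked (1.18, 1.08 to 1.28) and in Y-marked cells (1.35, 1.21 to 1.5). Between the HSC-like clusters, whose cells come mostly from different clusters in the 2 libraries, the ratio was 1.05 (0.898 to 1.23). RefSeq lists several Mif pseudogenes that have no row under such a name here, and reads shared with them could not be separated.

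Erythroid-like and neutrophil-like cells did not show the Mif difference to the same size, but empty droplets did, at 512 and 684 CPM (1.34, 1.26 to 1.42). In erythroid-like cells Mif was at 594 and 647 CPM, a ratio of 1.09 (1.01 to 1.18), and in neutrophil-like cells at 708 and 625 CPM, a ratio of 0.883 (0.764 to 1.02). The ratio in retained cells was 1.23 times (1.11 to 1.35) that in erythroid-like and 1.51 times (1.29 to 1.77) that in neutrophil-like cells. Haemoglobin-rich cells held 4 Mif UMIs in each library, 49.3 and 35.8 CPM. Counted without haemoglobin these came to 384 and 306 CPM, 2.0-fold and 3.34-fold below the retained cells.

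Against these values, 4 of 9 members were at least 1.5-fold lower in erythroid-like than in retained cells of both libraries (Bnip3, Ddit4, Ndrg1 and Kdm3a), beside 33.2% of 9209 genes. Ero1l alone was higher by that rule, beside 14% of genes. In neutrophil-like cells 3 of 9 were lower (Ddit4, Ndrg1 and Kdm3a), beside 33.6% of 8726 genes, and 1, Ero1l, was higher, beside 7.06%. With so few members, these counts do not set the panel apart from all genes.

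**Figure D3:**
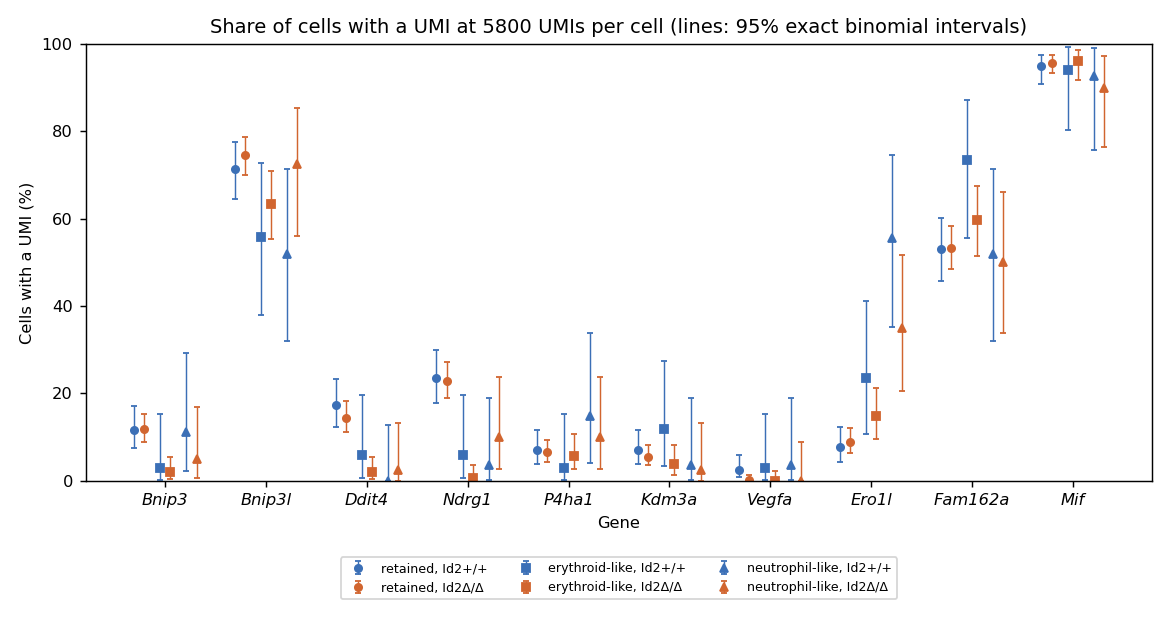
Percent of cells with a UMI of each gene after every cell was thinned to 5800 UMIs, with 95% exact binomial intervals; blue is Id2+/+ and orange Id2Δ/Δ, circles are retained, squares erythroid-like and triangles neutrophil-like cells. Retained cells of the 2 genotypes overlap for all 10 genes, while Ndrg1 is highest in retained cells (23.5% and 22.8%) and Ero1l in neutrophil-like cells (55.6% and 35.0%), with some intervals of the kinds overlapping.

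Free RNA sets the background of these shares. Barcodes with 1 to 100 UMIs, taken as empty droplets, held 46.3% of the Id2+/+ library and 22.4% of the Id2Δ/Δ library. The levels of the genes in them ran from 0.753 to 512 CPM in the Id2+/+ library and from 0.26 to 684 CPM in the Id2Δ/Δ library. Bnip3 (16.8 and 5.98 CPM in empty droplets), Ddit4 (22.1 and 9.10 CPM) and Ndrg1 (37.1 and 17.2 CPM) were below that level in erythroid-like cells of the same library, while empty droplets held more Ero1l than retained or erythroid-like cells. Between the libraries, Ddit4 in empty droplets had a ratio of 0.412 (0.270 to 0.616), in the same direction as in retained cells, as had Mif. If all haemoglobin in retained cells is free RNA, free RNA makes up 10.5% and 5.40% of their UMIs. Subtracting it left Ddit4 at 0.663 (0.484 to 0.922) and Mif at 1.31 (1.24 to 1.39).

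The retained cells fell into 8 clusters. Of these, 5 held cells of 1 library only, and in these the cluster and the genotype cannot be told apart. The other 3 were mostly Id2Δ/Δ, with 11 Id2+/+ cells of 56, 7 of 51 and 4 of 31. The values that follow therefore describe cells clustered on their whole expression and carry no test. Ddit4 was at 44.2 CPM (32.7 to 58.5) in the HSC-like cluster of 167 Id2+/+ cells led by Meg3 and Fos, and at 35.5 CPM (18.3 to 61.9) in the HSC-like cluster of 44 Id2Δ/Δ cells led by Smtnl1, which also has Procr among its leading genes. An unnamed cluster of 152 Id2Δ/Δ cells led by Gsta4 had 37.9 CPM (28.1 to 50.2). Ddit4 was lower in Id2Δ/Δ cells led by the replication genes Ung and Hells (17.3 CPM), the platelet genes Pf4 and Gp1bb (14.4 CPM), the mitotic genes Ccnb2 and Cenpa (15.6 CPM), and Aurkb and Ube2c (6.75 CPM). The Id2+/+ cluster led by Dntt and Ccl5, genes of lymphoid cells, had 20.9 CPM.

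Mif ran the other way over most of these clusters. It was at 600 CPM in the cluster led by Meg3 and Fos, 624 CPM in that led by Smtnl1 and 741 CPM in that led by Gsta4. It was at 1249 CPM in the cells led by Ung and Hells, 1206 CPM in those led by Pf4 and 1507 CPM (1410 to 1609) in those led by Aurkb. The cluster led by Ccnb2 and Cenpa, also genes of dividing cells, had 554 CPM (487 to 627), the lowest of the 8. Fam162a followed Mif in part, with 162 to 176 CPM in the cells led by Aurkb, Pf4 and Ung and 91.6 CPM in those led by Smtnl1.

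The scarcer genes gave 3 further patterns. Bnip3 was at 32.5 and 34.1 CPM in the clusters led by Meg3 and by Gsta4 and at 5.06 CPM in that led by Aurkb. P4ha1 was at 28.0 CPM (19.0 to 39.7) and 23.6 CPM (10.2 to 46.6, from 8 UMIs) in the 2 HSC-like clusters. It was at 3.68 CPM, from 3 UMIs, in the cluster led by Dntt, and its level in the other clusters is not listed here. Ndrg1 was highest in the clusters led by Dntt (67.5 CPM), Ccnb2 (64.8 CPM) and Gsta4 (62.7 CPM) and lowest in the HSC-like cells led by Smtnl1 (26.6 CPM). Bnip3l ran from 152 CPM in the cells led by Aurkb to 298 CPM (243 to 363) in those led by Smtnl1.

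**Figure D4:**
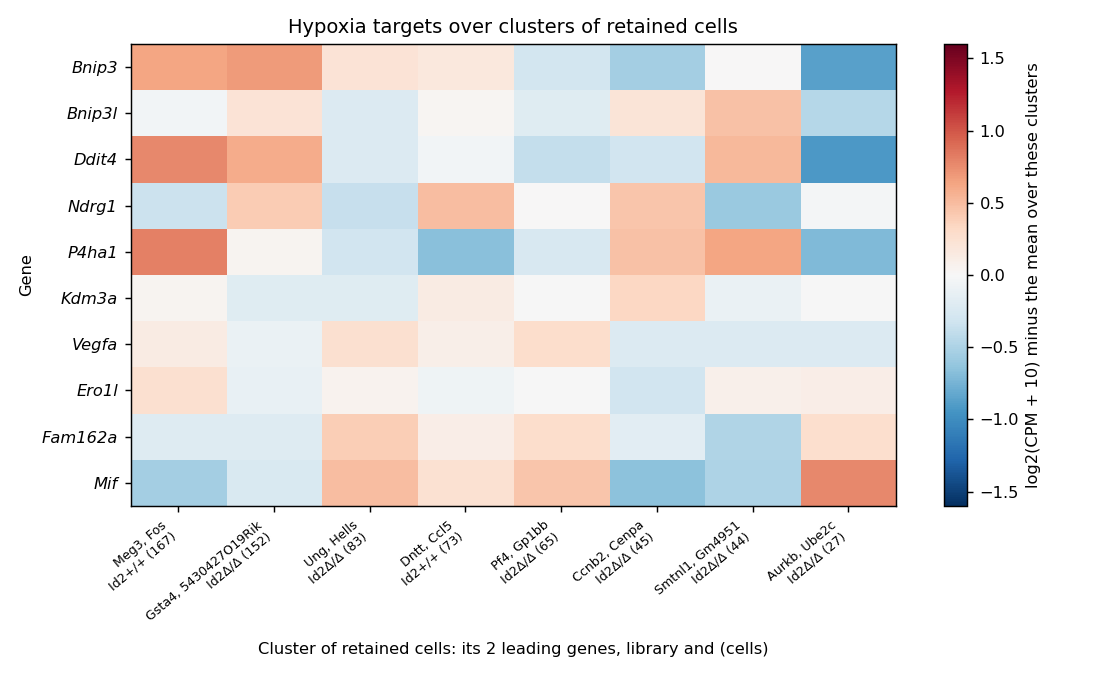
Level of each gene over 8 clusters of retained cells, named by their 2 leading genes with the library and number of cells; colour is log2(CPM + 10) minus the mean of the gene over these clusters. Ddit4 and Bnip3 are high in the clusters led by Meg3 and Gsta4 and low in that led by Aurkb, and Mif is the reverse in these clusters.

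Over 12 groups of at least 20 cells (erythroid-like and neutrophil-like cells and the clusters, by library), each member was compared with 4549 genes that reached 50 CPM in any group. These correlations are descriptions: the groups share 2 libraries and differ in depth. Nearest to Ddit4 were Ogt (Pearson r = 0.98), Ttc3 (0.97) and Eif4a2 (0.97). Nearest to Ero1l were Mtf1 (0.98), Svip (0.94) and Rgcc (0.94), to Fam162a Cdk4 (0.96), Ncbp1 (0.95) and Gars (0.95), and to Mif Dctpp1 (0.95), G3bp1 (0.92) and the glycolytic enzyme gene Ldha (0.92). Ndrg1 was nearest to Dapp1 (0.95), Muc13 (0.94) and Bcl2 (0.94).

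The remaining 5 genes had looser neighbours. Bnip3 was nearest to Mob3a (0.90), Parvg (0.89) and Mxd4 (0.88), and Bnip3l to Prr13 (0.92), 2310001H17Rik (0.92) and Tcp11l2 (0.92). P4ha1 was nearest to Cdk5rap1 (0.89), Sugt1 (0.86) and Fam32a (0.80), Kdm3a to Ptms (0.90), Rnf10 (0.89) and Men1 (0.89), and Vegfa, with its few UMIs, to Tkt (0.90), Arpc4 (0.89) and Far2 (0.88). Members were left out of this ranking. Between members, r was 0.81 for Vegfa and Ero1l and 0.75 for Ndrg1 and Kdm3a. It was -0.84 for P4ha1 and Mif, -0.84 for Bnip3l and Fam162a and -0.74 for Ndrg1 and Ero1l. For Ddit4 and Mif it was -0.059, and for Bnip3 and Mif -0.009. The 10 genes did not move as 1 block over these groups.

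Other genes of the pathway were taken from lists of hypoxia-induced genes and of HIF regulators. Of 25 further hypoxia-induced genes outside glycolysis that passed the filter, 1 was at least 1.5-fold higher in retained Id2Δ/Δ cells and 5 were lower, with a median log2 ratio of -0.12. Over all genes 3.3% were higher and 13.5% lower, so the counts of these short lists do not set them apart. None of these 6 reached 50 CPM, and they are these: Egln1 was past the limit upward and Ak4, Kdm4b, Mxi1, Plod1 and Rora downward. The intervals of Egln1 (1.59, 0.622 to 4.83), Ak4 (0.616, 0.315 to 1.23) and Plod1 (0.621, 0.266 to 1.49) held 1, while those of Kdm4b (0.455, 0.223 to 0.928), Mxi1 (0.571, 0.405 to 0.808) and Rora (0.469, 0.282 to 0.781) did not. Higd1a, short of 1.5-fold at 145 and 197 CPM, also had an interval off 1, above it (1.35, 1.19 to 1.54). Of 17 glycolytic targets, 0 were higher and 3 lower by that rule, with a median of 0.01. By interval, 4 lay above 1, namely Ldha (1.20, 1.14 to 1.27), Pfkl (1.18), Eno1 (1.16) and Tpi1 (1.11), and 5 below: Hk1, Hk2, Pfkfb3, Gapdh and Pgk1. Pgk1, the phosphoglycerate kinase, was at 119 CPM in Id2+/+ and 52.3 CPM in Id2Δ/Δ cells, a ratio of 0.439 (0.367 to 0.526). The others past 1.5-fold were Hk2 (0.619, 0.428 to 0.899) and Pfkfb3 (0.347, 0.169 to 0.698). Of 7 HIF factors and regulators, Egln1, which is on both lists, was past the limit upward and Arnt (0.585, 0.347 to 0.996) downward, with a median of 0.08, and Hif1a stood at 22.5 and 24.3 CPM, a ratio of 1.08 (0.765 to 1.55). Of the genes in this account of the other lists, all but Pgk1 are named after their values were seen.

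The direction of small shifts rests on the scaling. Trimmed-mean (TMM) scaling moved every log2 ratio up by 0.11. Calls over all genes then went from 345 higher and 1416 lower to 562 higher and 1040 lower. Under it Ddit4 had a ratio of 0.718 (0.526 to 0.985) and Mif one of 1.44 (1.36 to 1.52), both on the same side of 1, the interval of Fam162a came to lie above 1, and 0 members were past 1.5-fold.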

How the data were processed

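Single-cell RNA of sorted HSCs was measured in 1 library per genotype. The authors deposited raw UMI counts per gene and barcode, without normalization and without a call of cells. The submitters' processing notes name Cell Ranger 2.2.0 and the build mm10, which is the assembly GRCm38, so coordinates come from the RefSeq annotation of GRCm38.p6, joined on symbols. Cells were barcodes above 10% of the 99th percentile of UMIs over the 1000 deepest barcodes of a library, with under 10% mitochondrial UMIs. Clusters were made with scanpy 1.11.5 (2000 variable genes, 20 components, 15 neighbours, Leiden resolution 1), and those with at least 4 markers of another cell type were set aside as erythroid-like, neutrophil-like or haemoglobin-rich (over 10% haemoglobin). The rest, called retained cells, were clustered again at resolution 0.8, and a cluster was named from at least 3 of its class's markers. Doublets were not removed.

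Counts were summed over cells. Levels are CPM with exact Poisson limits, ratios with exact conditional intervals and shares with Clopper-Pearson intervals, all at 95% and for counting error only. Amplified reads were already collapsed to UMIs. A gene was called past 1.5-fold with 0.5 added to each count and at least 20 UMIs over both libraries, or, between kinds, in both libraries. A count of 0 is read as allowing up to 3 counts. Retained cells held 2133449 and 4685729 UMIs. UMIs tag molecules at 1 end, so levels were not divided by gene length.

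The text names all 10 members, the 3 genes most like each by Pearson's r on log2(CPM + 10), leaving out members and mitochondrial and ribosomal protein genes, and genes of the other lists past 1.5-fold with at least 50 CPM in either library. Genes named outside this rule are marked as such. The members and lists were chosen with earlier results of these data known. Intervals were tried on simulated Poisson counts. These hold no spread between cells or libraries, so the trial bears on counting error only. Alternatives included TMM factors from edgeR 4.0.16 and Scrublet, which marked 2 and 1 cells. Promoter and protein sequences were not used here.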

Additional observations from a re-analysis of the deposited data

Results flagged for a closer look

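The ratio of Fam162a, Id2Δ/Δ over Id2+/+, lay on opposite sides of 1 in retained cells (1.14) and in erythroid-like cells (0.847). The first was 1.35 times the second, with a counting interval of 1.10 to 1.64. The ratio of Mif was 1.33 in retained and 0.883 in neutrophil-like cells, a quotient of 1.51 (1.29 to 1.77). These 2 were singled out from 19 comparisons of members with at least 20 UMIs in both sets of cells, because the direction differed and the interval of the quotient excluded 1. With 1 library per genotype the differences were not tested against the spread between libraries, and no cause was tested.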

How the results depend on the processing

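No paired analysis was possible because a genotype is 1 library. Over 15 or 16 alternatives for each gene, Bnip3 stayed below 1 and Mif above 1 in all 16. Of 159 ratios in all, 147 stayed within the counting interval of the reported value and 11 left that interval. The remaining 1 also left it and changed direction, for a gene whose interval excluded 1: Ddit4, at 1.08 in Y-marked cells. Counting every gene, 9 ratios of 8 genes crossed 1, from 0.803 for Fam162a in HSC-like clusters to 1.41 for Vegfa in Y-marked cells. The ratio of Mif ran from 1.05 in HSC-like clusters to 1.44 with TMM scaling, and that of Bnip3l reached 1.47 (1.15 to 1.87) in HSC-like clusters. The number of members at least 1.5-fold higher was 0 throughout. The number lower went from 1 to 0 with cells of at least 1000 UMIs and 500 genes, with the labels' number of cells, with TMM scaling, without the cell richest in each gene, without the barcode called in both libraries and at a fold of 2. It went to 3 (Bnip3, Ddit4 and Vegfa) with no cluster left out and to 2 (Bnip3 and P4ha1) in Y-marked cells. It stayed at 1 but named another gene in HSC-like clusters (Bnip3, 0.566, with Ddit4 at 0.799) and by the mean CPM of each cell (P4ha1). Between the libraries, the share of all genes past 1.5-fold was counted only with the main and the TMM scaling. The member counts under the other settings therefore have no background. The median log2 ratio of the members, -0.17, became -0.50 with no cluster left out, -0.063 with TMM scaling, -0.041 with free RNA subtracted, -0.055 in Xist-marked cells and -0.0089 with at least 100 UMIs. At that minimum, the further hypoxia-induced genes outside glycolysis had 0 higher and 1 lower of 11, and the HIF regulators 0 higher and 0 lower of 2 with a median of -0.076. With TMM scaling the medians of the further genes, the glycolytic targets and the regulators became -0.011, 0.11 and 0.19, with 2 of the first and 1 of the second higher. The causes were not tested. Setting haemoglobin UMIs aside and leaving out the shared barcode were chosen after seeing the data. With 1 CPM added in place of 10, 21 of 30 most similar genes were shared. Members under 100 UMIs, such as Vegfa, Kdm3a and P4ha1, are limited by depth.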
